A study of Mus musculus with 198 samples.

Results

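The genes described here encode the receptors of the monoamines and of acetylcholine: the serotonin (Htr), dopamine (Drd) and adrenergic (Adra, Adrb) receptors and the muscarinic (Chrm) and nicotinic (Chrn) acetylcholine receptors. They were chosen by symbol alone from a table of DNA methylation per gene. Of 34193 gene rows, 49 carried such a symbol and 43 of these had values in all 8 animals: 13 of 14 serotonin, 4 of 5 dopamine, 7 of 9 adrenergic, 3 of 5 muscarinic and 16 of 16 nicotinic receptor genes. The other 6 had no value in any animal and do not enter any count of 43. The study compared the brain methylation of mice with a heterozygous knockout of Dnmt3a, called hKO, with that of wild-type (WT) littermates, so each hKO animal retained 1 unaltered allele. Dnmt3a encodes a DNA methyltransferase. The gene table covers whole cortex of C57BL/6J mice aged 8 weeks, with 4 hKO and 4 WT animals, 2 males and 2 females of each genotype. The construction of the knockout allele is not given in the sources used here. Because whole cortex was taken, a value averages neurons, glia and vessel cells, and a shift in cell makeup and a shift within cells cannot be told apart.

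Whole-genome bisulfite sequencing reads methylated cytosine as unconverted cytosine. The deposited values are the fraction of cytosines called methylated over each gene, at CA dinucleotides (mCA) and at CG dinucleotides (mCG), and are given here as percentages. The labels give 6.4 to 7.8 genome equivalents per library, but no coverage per gene, so the counting error of a single gene is unknown. Per-animal values are listed with the 2 males before the 2 females: 695, 046-1, 651-3 and 047-2 in WT, and 694, 046-2, 651-2 and 047-1 in hKO. The labels of the males name a HiSeq3000 sequencer and those of the females name a NextSeq500 beside it, so sex and instrument text coincide, evenly over genotype.

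Serotonin, dopamine and noradrenaline receptors, except the 5-HT3 channels, signal through G proteins. Receptors coupled to Gs raise cyclic AMP, those coupled to Gi/o lower it, and those coupled to Gq/11 activate phospholipase C. Nicotinic receptors and 5-HT3 receptors are ligand-gated cation channels built of separate subunits. In mature neurons DNMT3A deposits methylation at CA sites after birth, whereas CG methylation is laid down early and kept by other enzymes as well.

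Animals numbered 651 stood above the others of their genotype. Over all genes WT 651-3 had the highest WT mCA in 77.7% of genes and hKO 651-2 the highest hKO mCA in 69.99%, and among the 43 receptor genes the shares were 69.8% and 74.4%. The median gene lay at 2.43% in 651-3 and between 1.91% and 1.93% in the other WT animals. It lay at 1.32% in 651-2 and between 1.01% and 1.11% in the other hKO animals. Without both animals, an alternative chosen after seeing the data, 34 receptor genes passed the mCA test in place of 37. The labelled tissue could be compared with marker genes only through their methylation: the median WT mCA was 2.32% over 9 cortical neuron genes and 3.37% over 13 glial and vascular genes, and gene-body methylation does not show which cells were present.

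mCA was lower in hKO cortex in nearly the whole receptor set. In WT cortex the median receptor gene carried 2.90% mCA, against 2.07% for the median of all 21302 genes, and 31 of the 43 lay above that median. In hKO cortex the median receptor gene carried 1.64%, against 1.15% for all genes. All 43 had a lower mean in hKO, 37 fell by limma (adjusted p under 0.05 over all genes) and 0 rose. This is 86.05% of the receptor genes, and 72.1% of all genes were called lower. Whether these shares differ was not tested. In 32 of the 43 each hKO animal lay below each WT animal, and 64.6% of all genes had such a separation. Males alone gave 30 lower receptor genes and females alone 24.

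**Figure D1:**
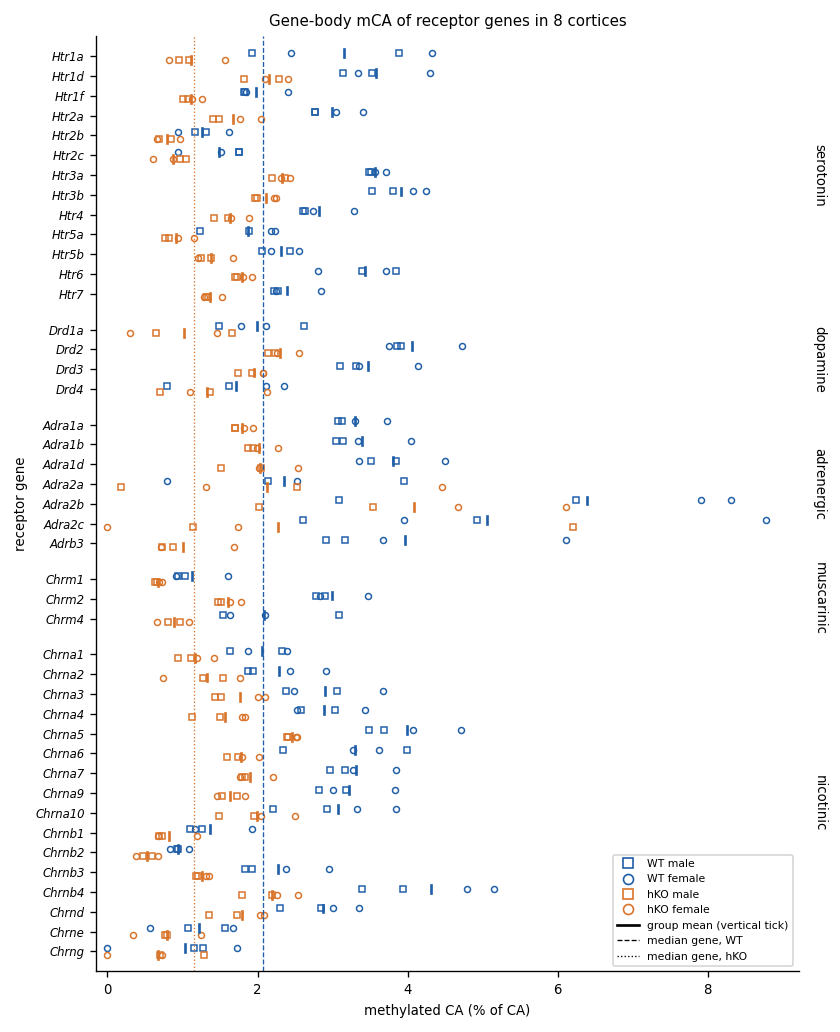
Gene-body mCA (percent of CA, horizontal axis) of the 43 receptor genes, 1 row per gene by family; squares are males and circles females, blue WT and orange hKO, vertical ticks are the means of 4 animals, and dashed and dotted lines the WT and hKO medians over all genes. In 32 rows the orange points all lie to the left of the blue ones; the alpha-2 adrenergic genes Adra2b and Adra2c are the widest rows.

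Glutamate, GABA and glycine receptor genes, metabotropic ones included, had lower WT medians. The 18 nicotinic and 5-HT3 channel subunit genes had a WT median of 2.90%, beside 2.90% for all 43 receptor genes. The WT median was 1.96% over 26 glutamate receptor genes and 2.03% over 26 GABA and glycine receptor genes, close to the median gene. Of these, 23 and 24 were lower in hKO by the same test, beside 72.1% of all genes. The share of WT mCA left in hKO lay close together: 56.6% for the median monoamine or acetylcholine receptor gene, 56.5% for glutamate, 57.2% for GABA and glycine receptors and 56.6% for all genes. Differences between these sets were not tested.

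All 13 measured serotonin receptor genes fell. Their WT median was 2.82% and their hKO median 1.38%, and in 11 of 13 the genotypes did not overlap. Over all genes 72.1% were called lower and 64.6% had each hKO animal below each WT animal. Htr3b, a subunit of the 5-HT3 channel, had the highest WT level. Its mCA was 3.53, 3.81, 4.24 and 4.07% in the WT animals and 1.97, 2.00, 2.24 and 2.22% in the hKO animals. The genotypes were far apart, and the difference was -1.81 points (SE 0.224, limma, adjusted p = 6.92e-04). The partner subunit Htr3a varied least between WT animals among the 43 genes, with 3.49, 3.52, 3.71 and 3.56% in the WT animals and 2.36, 2.20, 2.44 and 2.31% in the hKO animals. It kept 65.2% ± 1.66 (SE) of its WT level, the highest share among the 37 genes that fell.

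Htr1a encodes the 5-HT1A receptor, the Gi/o-coupled autoreceptor of serotonin neurons and a postsynaptic receptor in cortex. Its mCA was 3.89, 1.92, 2.45 and 4.33% in the WT animals and 1.09, 0.954, 1.56 and 0.822% in the hKO animals. WT animals ranged widely, yet the highest hKO animal, 651-2, stayed under the lowest WT animal, 046-1. The difference was -2.04 points (SE 0.495, limma, adjusted p = 0.00491), the largest fall of the family, and it did not pass in males alone (adjusted p = 0.104). Htr2a, the Gq/11-coupled target of classical hallucinogens, went from 2.99% ± 0.305 (SD, n = 4) in WT to 1.68% ± 0.291 (SD, n = 4) in hKO, and the Gs-coupled Htr6 from 3.44% ± 0.461 (SD, n = 4) to 1.79% ± 0.0993 (SD, n = 4). Neither overlapped between genotypes. The remaining 6 genes had no overlap either. The Gi/o-coupled Htr1d went from 3.58% to 2.15% and Htr1f from 1.97% to 1.12%. The Gs-coupled Htr4 went from 2.82% to 1.64% and Htr7, known from circadian and thermoregulatory studies, from 2.40% to 1.36%. The paralogs Htr5a and Htr5b went from 1.88% to 0.919% and from 2.31% to 1.38%.

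At the low end of the family stood Htr2b, the 5-HT2B receptor known from heart valve and gut, with 1.16, 1.31, 1.63 and 0.940% in the WT animals and 0.690, 0.849, 0.970 and 0.666% in the hKO animals. The groups overlapped at 1 animal each, since hKO 651-2 lay above WT 047-2. The fall of -0.466 points (SE 0.166, limma, adjusted p = 0.0292) was lost without WT 046-1 (adjusted p = 0.0609) and without hKO 694, 046-2 or 047-1 (adjusted p = 0.0781, 0.0559 and 0.0773). Htr2c, the Gq/11-coupled 5-HT2C receptor, had 1.75, 1.76, 1.52 and 0.942% in the WT animals and 1.04, 0.968, 0.874 and 0.601% in the hKO animals. Here the females of each genotype were the low animals, and hKO 694 and 046-2 lay above WT 047-2. The fall of -0.621 points (SE 0.204, limma, adjusted p = 0.0208) was lost without WT 695, WT 046-1 or hKO 047-1 (adjusted p = 0.0558, 0.0547 and 0.0620).

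Of the 4 measured dopamine receptor genes, 3 fell, beside 72.1% of all genes called lower. Drd2, the Gi/o-coupled D2 receptor that antipsychotic drugs block, had the highest WT level of the family. Its mCA was 3.86, 3.91, 4.72 and 3.76% in the WT animals and 2.14, 2.23, 2.55 and 2.26% in the hKO animals, with no overlap and WT 651-3 well above the other WT animals. The difference was -1.77 points (SE 0.265, limma, adjusted p = 6.93e-04). Drd3, the related D3 receptor, went from 3.47% ± 0.456 (SD, n = 4) to 1.95% ± 0.154 (SD, n = 4), a difference of -1.52 points (SE 0.252, limma, adjusted p = 8.38e-04). Both kept a share near the median gene, 56.5% and 56.2%.

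Drd1a, the Gs-coupled D1 receptor, held less mCA, with 2.62, 1.48, 2.11 and 1.78% in the WT animals and 1.65, 0.647, 1.46 and 0.295% in the hKO animals. The hKO animals ranged from 0.295% to 1.65% and 694 lay above WT 046-1. Its fall of -0.983 points (SE 0.347, limma, adjusted p = 0.0280) was lost without WT 695 or 651-3 (adjusted p = 0.0710 and 0.0758) and without hKO 046-2 or 047-1 (0.0768 and 0.0761). It was lost in each sex alone too (adjusted p = 0.0995 in females and 0.250 in males). Drd4, the D4 receptor, had 0.787, 1.61, 2.11 and 2.36% in the WT animals and 0.695, 1.37, 1.10 and 2.13% in the hKO animals. These groups overlapped throughout, and the difference of -0.396 points (SE 0.386, limma, adjusted p = 0.366) did not pass. It depended on single animals: it was -0.706 points without WT 695 and -0.665 without hKO 047-1, but -0.183 without WT 047-2 and -0.187 without hKO 694.

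The adrenergic receptor genes had the highest median of the 5 families, 3.80% in WT and 2.03% in hKO cortex. The Gq/11-coupled alpha-1 receptors Adra1a, Adra1b and Adra1d and the Gs-coupled beta-3 receptor Adrb3 fell, and the Gi/o-coupled alpha-2 receptors did not pass. Adrb3, best known from adipose tissue, had 3.16, 2.91, 3.67 and 6.11% in the WT animals and 0.730, 0.875, 1.68 and 0.714% in the hKO animals. The genotypes did not overlap and -2.96 points (SE 0.631, limma, adjusted p = 0.00254) was the largest fall in points among the receptor genes that passed. Adra1d went from 3.80% ± 0.509 (SD, n = 4) to 2.03% ± 0.417 (SD, n = 4), a difference of -1.77 points (SE 0.314, limma, adjusted p = 0.00106), again with no overlap. Adra1a went from 3.31% to 1.79% and Adra1b from 3.39% to 2.02%.

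The alpha-2 genes encode receptors found on both sides of the synapse, and through the presynaptic ones noradrenaline limits its own release. Adra2b had the highest WT level of the receptor genes, 3.08, 6.24, 8.31 and 7.91% in the WT animals and 3.54, 2.02, 4.67 and 6.11% in the hKO animals. Its groups overlapped, and the difference was -2.30 points (SE 1.23, limma, adjusted p = 0.114). It passed without WT 695 (adjusted p = 0.0144) and with sex as covariate (0.0230). Adra2c was next, with 2.61, 4.92, 3.95 and 8.77% in the WT animals and 6.21, 1.14, 1.74 and 0% in the hKO animals. The highest hKO animal, 694, lay above 3 of the WT animals while 047-1 is listed at 0. The difference was -2.79 points (SE 1.53, limma, adjusted p = 0.124), and -4.10 points (adjusted p = 0.0190) without hKO 694 and -5.49 (0.0199) in females. It was -1.55 points (0.284) without WT 047-2 and -0.0885 (0.976) in males.

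Adra2a, the target of clonidine and guanfacine, had 2.14, 3.95, 2.53 and 0.794% in the WT animals and 0.181, 2.53, 1.32 and 4.46% in the hKO animals. The lowest of the 8 animals, 694, and the highest, 047-1, were both hKO, and the difference of -0.232 points (SE 0.908, limma, adjusted p = 0.823) changed sign with the animals used: it was 0.301 points without WT 046-1, -0.752 without WT 047-2, -0.368 without hKO 046-2, 0.416 without hKO 694, 0.0375 without hKO 651-2 and -1.01 without hKO 047-1. The 6 receptor genes that did not pass (Adra2a, Adra2b, Adra2c, Drd4, Chrne and Chrng) varied more between animals. Their WT SD was 37.2% to 70.6% of the WT mean, and in the 37 that fell it was 2.74% to 36.96%, with a median of 14.5%. The part of this spread in the missing calls was not tested.

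All 3 measured muscarinic receptor genes fell, with no overlap between genotypes in any of them. Over all genes 72.1% were called lower and 64.6% were apart in this way. Chrm2, the Gi/o-coupled M2 autoreceptor of cholinergic terminals, had 2.89, 2.78, 3.47 and 2.83% in the WT animals and 1.47, 1.51, 1.78 and 1.63% in the hKO animals. Its difference was -1.39 points (SE 0.202, limma, adjusted p = 6.92e-04). Chrm4, the Gi/o-coupled M4 receptor, had 1.54, 3.08, 2.10 and 1.64% in the WT animals and 0.966, 0.812, 0.661 and 1.09% in the hKO animals, and fell by 1.21 points (SE 0.315, limma, adjusted p = 0.00717). It kept 42.3% ± 8.43 (SE) of its WT level and did not pass in either sex alone (adjusted p = 0.0805 in females and 0.115 in males) or without both 651 animals (0.0617).

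Chrm1 encodes the Gq/11-coupled M1 receptor, the main muscarinic receptor of cortical pyramidal neurons. It was among the least methylated receptor genes, with 1.03, 0.945, 1.61 and 0.918% in the WT animals and 0.637, 0.661, 0.729 and 0.691% in the hKO animals. The hKO animals lay close together under every WT animal, and WT 651-3 stood apart above the other WT animals. The difference was -0.447 points (SE 0.166, limma, adjusted p = 0.0342), and the call was lost without any 1 of the hKO animals 694, 046-2, 651-2 and 047-1 (adjusted p = 0.0776, 0.0747, 0.0535 and 0.0657) and in females alone (0.237). Without WT 651-3 the difference was -0.286 points (adjusted p = 0.0107).

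Of the 16 nicotinic subunit genes, 14 fell: 9 of 9 neuronal subunits, 2 of 2 cochlear subunits and 3 of 5 muscle subunits. Of all genes 72.1% were called lower, and the subunit groups were not compared by a test. The WT median was 2.90% for the neuronal, 3.14% for the cochlear and 1.36% for the muscle genes. Chrnb4, which with Chrna3 and Chrna5 forms the nicotinic receptors of ganglia and the habenula, had 3.39, 3.93, 5.15 and 4.80% in the WT animals and 1.79, 2.19, 2.54 and 2.26% in the hKO animals. It fell by 2.12 points (SE 0.391, limma, adjusted p = 0.00125), the largest nicotinic fall. Chrna5 went from 3.99% ± 0.544 (SD, n = 4) to 2.46% ± 0.0710 (SD, n = 4) and Chrna3 from 2.90% ± 0.600 (SD, n = 4) to 1.77% ± 0.340 (SD, n = 4).

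The main cortical receptors combine the subunits of Chrna4 and Chrnb2 or consist of the subunit of Chrna7. Chrnb2 had the lowest WT mCA of the 43 genes, with 0.937, 0.931, 1.09 and 0.827% in the WT animals and 0.597, 0.471, 0.678 and 0.376% in the hKO animals. The groups were close but did not overlap, and the difference was -0.416 points (SE 0.117, limma, adjusted p = 0.0104). Chrna4 went from 2.89% ± 0.425 (SD, n = 4) to 1.56% ± 0.326 (SD, n = 4) and Chrna7 from 3.31% ± 0.381 (SD, n = 4) to 1.90% ± 0.204 (SD, n = 4), each with no overlap. The other neuronal subunit genes, Chrna2, Chrna6 and Chrnb3, went from 2.29% to 1.33%, from 3.30% to 1.78% and from 2.27% to 1.26%. Chrnb2, Chrna4 and Chrna7 kept 56.1%, 53.97% and 57.2% of their WT level.

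Chrna9 and Chrna10 encode the subunits of the efferent receptor of cochlear hair cells. Chrna9 had 3.18, 2.82, 3.84 and 3.01% in the WT animals and 1.72, 1.53, 1.84 and 1.46% in the hKO animals, and fell by 1.58 points (SE 0.243, limma, adjusted p = 7.07e-04) with no overlap. Chrna10 overlapped between genotypes, and its fall of -1.08 points (SE 0.359, limma, adjusted p = 0.0221) was lost without WT 651-3 (adjusted p = 0.0576) or hKO 046-2 (0.0661). Among the muscle subunits, Chrna1 fell from 2.05% to 1.16%, Chrnd from 2.87% to 1.80% and Chrnb1 from 1.36% to 0.818%. The call of Chrnb1, at 0.0410, was lost without WT 695 or 651-3 (0.0574 and 0.0632) and without hKO 694, 046-2 or 047-1 (0.0906, 0.0999 and 0.0964). Its difference of -0.545 points was -0.357 without WT 651-3.

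Chrne, the adult muscle subunit, had 1.57, 1.07, 0.573 and 1.68% in the WT animals and 0.791, 0.769, 0.344 and 1.25% in the hKO animals, with both groups interleaved. Its difference of -0.433 points (SE 0.271, limma, adjusted p = 0.172) passed without WT 651-3 (-0.649 points, adjusted p = 0.0432) and was -0.281 without WT 047-2 and -0.285 without hKO 651-2. Chrng, the fetal muscle subunit, had 1.16, 1.28, 1.72 and 0% in the WT animals and 0.694, 1.28, 0.725 and 0% in the hKO animals. The females 047-2 and 047-1 are listed at 0, 1 in each genotype, and the difference of -0.363 points (SE 0.373, limma, adjusted p = 0.390) passed without WT 047-2 (-0.709 points, adjusted p = 0.0449). It was -0.565 points without hKO 046-2, -0.136 without WT 651-3 and -0.138 without hKO 047-1.

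By signalling class, mCA fell in 5 of 5 measured Gs-coupled, 7 of 7 Gq/11-coupled, 7 of 11 Gi/o-coupled receptor genes and 16 of 18 channel subunit genes, and in both 5-HT5 genes, beside the 72.1% of all genes called lower. The classes were not compared by a test. The 4 Gi/o genes that did not pass were the alpha-2 genes and Drd4. In the order of WT levels, from Adra2b at the top to Chrnb2 at the bottom, none of the 42 pairs of neighbours was separated by more than their summed SDs. Of 23 pairs standing 20 places apart, 20 were.

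The next question was whether any receptor gene kept more or less of its mCA than the rest of the genome. Among the 37 that fell, the share of the WT level found in hKO ran from 25.2% in Adrb3 to 65.2% in Htr3a, and in 33 it lay between 50 and 66%. Each gene was compared on a relative scale, log2(fraction + 0.001) minus the median of that quantity over all genes of the same library. By limma 0.00469% of all genes, which is 1 gene, passed on this scale, and 0 of the 43 receptor genes did. Without adjustment 2 receptor genes had p under 0.05, against 7.81% of all genes. Adrb3 was -1.11 on the log2 scale (SE 0.28, limma, p = 0.00451, adjusted p = 0.639) and Chrna9 was -0.13 (SE 0.06, p = 0.0477, adjusted p = 0.639). Adra2a had the highest share, 90.2% ± 46.17 (SE), an error that spans most of the range of the set.

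**Figure D2:**
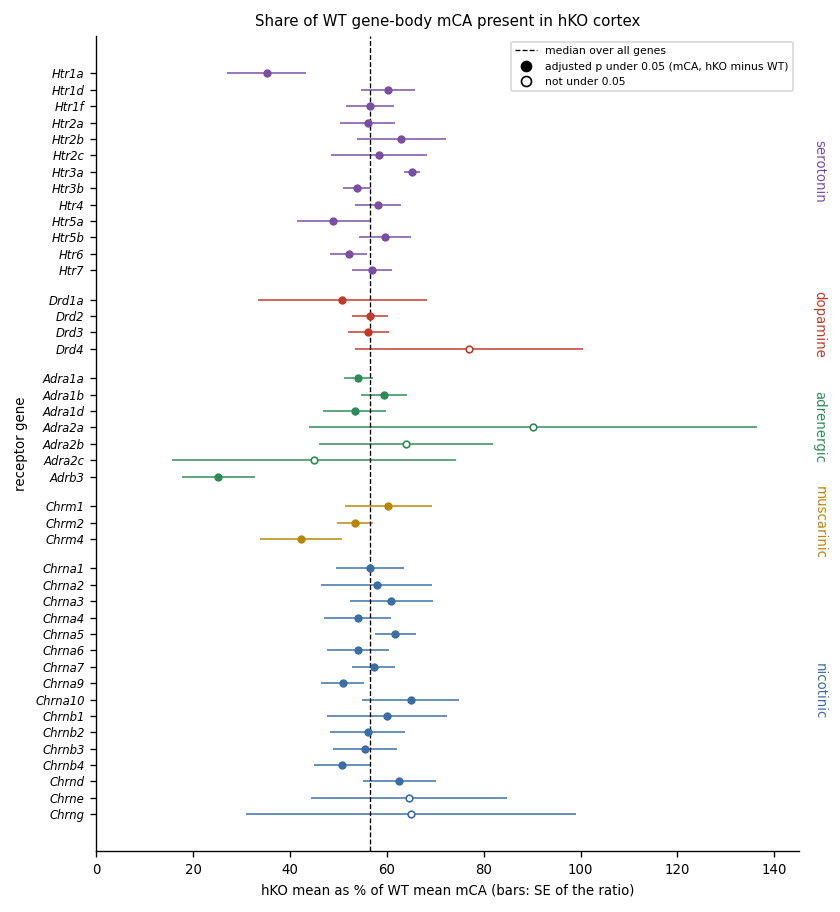
Mean hKO mCA as a percentage of mean WT mCA for each receptor gene (horizontal axis; bars are the SE of the ratio, 4 animals per genotype), coloured by family; filled points passed the mCA test and open points did not. Most points sit within their error of the dashed line at 56.6%, the median over all genes, with Adrb3 at 25.2% and Htr1a at 35.2% to its left.

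mCG was high in both genotypes. The median receptor gene carried 76.6% in WT and 74.9% in hKO cortex, against 79.4% and 77.1% over all genes. No receptor gene passed the test: limma called 0 of 43, and 0.0% of 21060 genes. Without adjustment 8 of the 43 had p under 0.05, as did 10.4% of all genes. The mean was lower in hKO in 38 of the 43 and in 84% of all genes. Family medians in WT were 77.9% for serotonin, 75.8% for nicotinic, 72.6% for dopamine, 61.5% for muscarinic and 56.6% for adrenergic receptor genes. The adrenergic value depended on 1 animal and was 69.05% without WT 047-2.

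The mCG ranges of the genotypes were apart, with hKO lower, in 3 receptor genes, which is 6.98% of the 43, beside 4.94% of all genes. They are Drd1a, Adra2a and Htr1a, each with low mCG in WT cortex. The other G protein-coupled receptor genes with WT mCG below 60%, Adra1d, Chrm4, Adra2c and Adrb3, overlapped between genotypes. Chrm4 and Adra2c had a higher mean in hKO. The Drd1a values were 49.1, 41.3, 41.96 and 53.3% in the WT animals and 34.5, 22.2, 26.9 and 40% in the hKO animals. The lowest WT animal, 046-1, lay just above the highest hKO animal, 047-1. The difference was -15.5 points (SE 4.32, limma, adjusted p = 0.476), with an unadjusted p = 0.00470 by limma. The Adra2a values were 44.3, 42.1, 34.7 and 37.5% in the WT animals and 24.8, 24.2, 30.1 and 33.3% in the hKO animals, and the difference was -11.5 points (SE 3.11, limma, adjusted p = 0.476) with an unadjusted p = 0.00384. It was -18.7 points in males and -4.37 in females. The Htr1a values were 26.5, 32.1, 23.1 and 50% in the WT animals and 21.6, 12.4, 15.7 and 22.9% in the hKO animals. Female WT 047-2 stood high and the gap between WT 651-3 and hKO 047-1 was small. The difference was -14.8 points (SE 5.26, limma, adjusted p = 0.476), unadjusted p = 0.0179, and it was -9.12 points without WT 047-2.

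Chrne had the lowest WT mCG of the 43, with 17.7, 37.6, 33.96 and 35.8% in the WT animals and 22.01, 17.97, 22.2 and 17.2% in the hKO animals. WT 695 lay among the hKO animals and the other 3 WT animals above them, and the difference was -11.4 points (SE 4.06, limma, adjusted p = 0.476). The other receptor genes with an unadjusted p under 0.05 were Htr6 (-6.39 points), Chrna10 (-5.56), Htr3a (-5.49) and Htr5a (-5.40), each lower in hKO and each with an adjusted p = 0.476 by limma. Without hKO 694 the value of Chrna10 was -3.69. Chrm1, the muscarinic gene with the largest mCG difference, had a mean of 61.5% ± 1.68 (SD, n = 4) in WT and 59.2% ± 1.92 (SD, n = 4) in hKO, a difference of -2.32 points (SE 2.28, limma, adjusted p = 0.630). Adra2c had the largest mCG difference in size, and it was upward. Its values were 57.1, 75, 75 and 0% in the WT animals and 81.8, 88.9, 71.4 and 33.3% in the hKO animals. These are simple fractions, which a few CG calls per animal would give, and the number of calls is not known. WT 047-2 is listed at 0, and the difference of 17.1 points (SE 16.7, limma, adjusted p = 0.628) became -0.1804 points without that animal, 10.4 without hKO 046-2 and 28.9 without hKO 047-1.

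**Figure D3:**
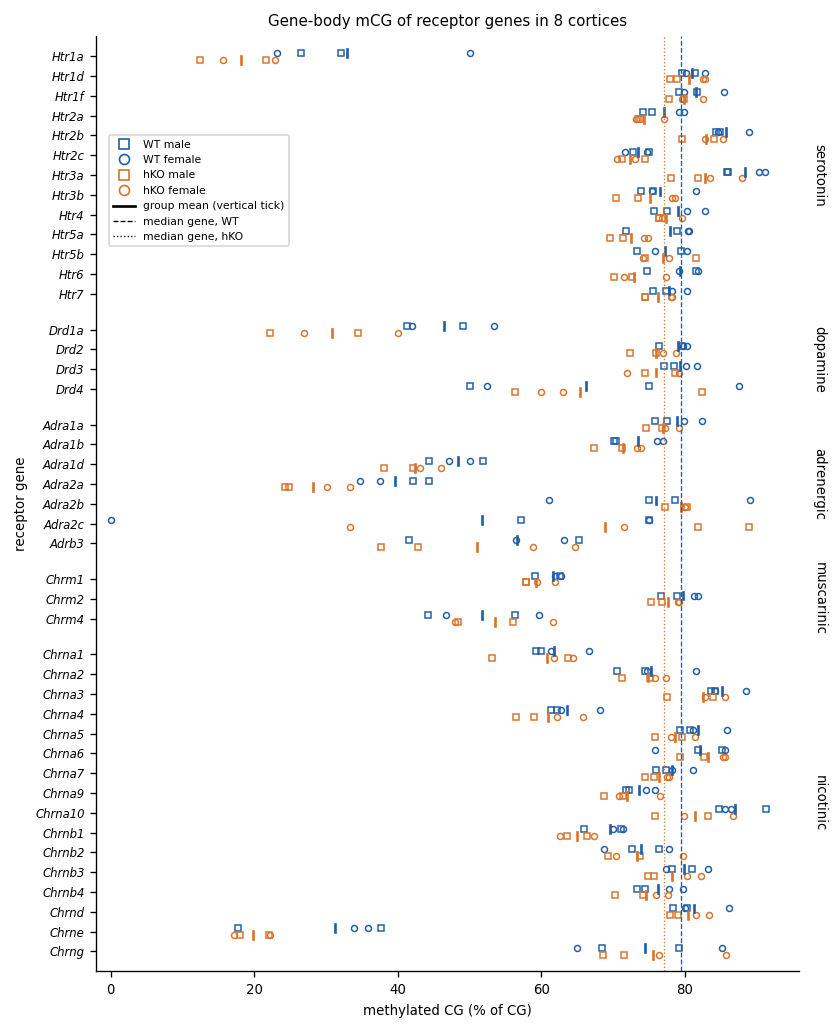
Gene-body mCG (percent of CG, horizontal axis) of the 43 receptor genes, drawn as in the plot of mCA by animal. Most rows cluster near the WT and hKO medians of all genes (79.4% and 77.1%), and Htr1a, Drd1a, Adra2a and Chrne stand far to the left.

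The bases before the transcription start of these low-mCG genes, and of Drd2 as a dopamine receptor gene with high mCG (79%), are shown because CG density near a start is a feature the choice of genes did not use. They are the 250 bases before the 5′-most RefSeq start in build GRCm38.p6, 5′ to 3′ on the gene's strand, with each CG pair in capitals. Drd1a has 2 listed starts, and the window of the other start was not counted. Adra2a lies at chr19:54045009-54045258, plus strand, Drd1a (RefSeq symbol Drd1) at chr13:54055659-54055908, minus strand, Drd2 at chr9:49340153-49340402, plus strand, Htr1a at chr13:105443443-105443692, plus strand and Chrne at chr11:70619195-70619444, minus strand.
Adra2a: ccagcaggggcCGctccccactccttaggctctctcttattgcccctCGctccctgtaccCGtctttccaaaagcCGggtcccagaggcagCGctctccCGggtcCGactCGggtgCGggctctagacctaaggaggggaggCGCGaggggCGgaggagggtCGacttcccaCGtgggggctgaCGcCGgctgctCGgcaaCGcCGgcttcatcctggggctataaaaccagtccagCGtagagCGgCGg
Drd1a: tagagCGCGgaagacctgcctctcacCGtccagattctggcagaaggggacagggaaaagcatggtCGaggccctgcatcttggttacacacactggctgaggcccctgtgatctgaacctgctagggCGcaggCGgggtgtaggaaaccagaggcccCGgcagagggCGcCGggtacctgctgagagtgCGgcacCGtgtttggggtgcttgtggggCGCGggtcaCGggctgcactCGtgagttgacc
Drd2: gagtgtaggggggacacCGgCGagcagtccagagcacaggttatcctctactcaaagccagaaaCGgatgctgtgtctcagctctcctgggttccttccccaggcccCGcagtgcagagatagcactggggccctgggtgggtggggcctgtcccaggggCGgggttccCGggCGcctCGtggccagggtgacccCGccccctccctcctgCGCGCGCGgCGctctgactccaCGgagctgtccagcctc
Htr1a: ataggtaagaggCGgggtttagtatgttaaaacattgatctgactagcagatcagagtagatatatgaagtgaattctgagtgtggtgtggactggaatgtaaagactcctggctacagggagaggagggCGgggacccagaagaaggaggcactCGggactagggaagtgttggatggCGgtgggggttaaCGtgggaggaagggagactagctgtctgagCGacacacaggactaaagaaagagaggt
Chrne: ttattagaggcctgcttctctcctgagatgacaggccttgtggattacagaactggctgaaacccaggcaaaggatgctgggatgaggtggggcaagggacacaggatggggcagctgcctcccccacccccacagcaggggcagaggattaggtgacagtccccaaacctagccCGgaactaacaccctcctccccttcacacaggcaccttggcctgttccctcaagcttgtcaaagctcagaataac
The windows hold 22, 15, 15, 6 and 1 CG pairs, a motif that reads the same on both strands. Of 27025 RefSeq symbols, 14.6% hold at least as many as Adra2a, 27.5% as Drd1a and Drd2, 50.5% as Htr1a and 91.7% as Chrne. Drd1a and Drd2 hold the same number and differ in gene mCG, 46.4% against 79% in WT. Over the 32 receptor genes with an entry, the number of CG pairs and WT mCG had a Spearman rho of -0.14, and over all 15241 genes with both it was 0.05, across genes that are not independent. The table gives 1 value per gene, so methylation of these windows was not measured separately.

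Several receptor genes resembled the genes beside them in WT mCA. Neighbours were taken from the gene order of RefSeq in GRCm38.p6, which is not the mm9 build of the files, and only names and order were used. Htr2b overlaps the proteasome gene Psmd1, and carried 1.26% beside 0.972%. Chrnb2 overlaps the RNA editing gene Adar, and carried 0.946% beside 0.923%. Other overlapping genes were less alike: Chrna3 carried 2.90% and Chrna5 3.99%, and Chrna10 carried 3.07% and Art1 4.30%. Cytosines in an overlap can count for both genes. Drd2 at 4.06% lies next to Ankk1 at 4.04%, and Htr3a at 3.57% next to Htr3b at 3.91%. Others did not: Adra1a at 3.31% lies between Stmn4 at 0.664% and Dpysl2 at 0.812%. Over the 43 receptor genes the Spearman rho between a gene and the mean of its 2 nearest measured coding genes was 0.32, and over 17488 coding genes it was 0.49. Over the 31 receptor genes with no overlapping or receptor neighbour it was 0.20. Genes that lie side by side share neighbours, so these values only describe the set.

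Htr2c is the single receptor gene here on the X chromosome, and its mCA values lay apart by sex within each genotype. As a share of the median gene of the same animal it was 91.1 and 91.5% in WT males and 62.5 and 49.3% in WT females. It was 93.8 and 88.4% in hKO males and 66.1 and 59.5% in hKO females. All 4 males lay above all 4 females. On the relative log2 scale males were 0.58 above females (SE 0.10, limma with genotype in the model, adjusted p = 0.0543), which did not pass. Across all genes 1.0% passed this test, 0 of the 43 receptor genes among them. The median difference was 0.54 over 701 genes placed on the X chromosome, of which 168 passed, and -0.03 over autosomal genes. This comparison was added after the data had been seen, and sex coincides with the instrument text of the labels. The effect of genotype on mCA was also compared between the sexes, through the interaction term in limma, which called 0 of 43 receptor genes and 0.00939% of all genes. At an unadjusted p under 0.05 there were 0 receptor genes and 3.41% of all genes.

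**Figure D4:**
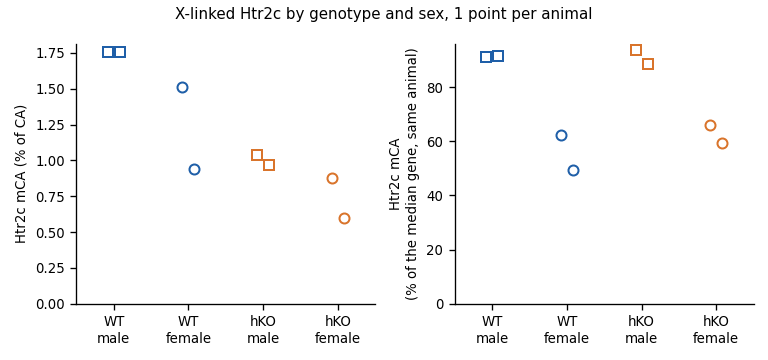
mCA of Htr2c in each of the 8 animals by genotype and sex, as percent of CA (left) and as percent of the median gene of the same animal (right); squares are males and circles females. On the right the 4 males lie between 88.4% and 93.8% and the 4 females between 49.3% and 66.1%.

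The genes that make, carry and break down these transmitters, and those that act below the receptors, showed the same direction. Of 59 such genes measured, 54 fell in mCA and 0 rose, against the 72.1% called lower over all genes. Ache, Gna11, Arrb2, Lynx1 and Rgs4 did not pass. Lynx1 differed by -0.0116 points and kept 98.6% ± 31.4 (SE) of its WT level. The 6 synthesis genes all fell. Ddc, the decarboxylase shared by dopamine and serotonin synthesis, went from 5.25% to 3.10% (limma, adjusted p = 7.28e-04) and Tph1, the peripheral tryptophan hydroxylase, from 4.02% to 2.02%. The 6 monoamine transporter genes fell, with Slc6a2, the noradrenaline transporter, from 3.99% to 2.14% and Slc6a4, the serotonin transporter, from 3.61% to 2.04%. The 3 breakdown enzymes fell, the X-linked monoamine oxidases Maob from 1.97% to 1.09% and Maoa from 1.43% to 0.798%. The call of Maoa (adjusted p = 0.0281) was lost without WT 695 or 046-1 (adjusted p = 0.0733 and 0.0712) and without hKO 046-2, 651-2 or 047-1 (0.0547, 0.0534 and 0.0777). Of 4 acetylcholine supply genes 3 fell, among them Chat, which makes the transmitter, from 3.05% to 1.83% and Bche, which degrades choline esters, from 2.43% to 1.32%.

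Below the receptors, 7 of 8 G protein alpha genes fell, with Gnas, the Gs subunit, from 2.92% to 1.83% and Gnal, its olfactory and striatal relative, from 2.45% to 1.42%. All 13 adenylyl cyclase and phospholipase C beta genes fell, Plcb4 from 4.82% to 2.85% and Adcy7 from 3.64% to 1.93%. Of 7 desensitization genes, which encode receptor kinases and arrestins, 6 fell, with the kinase genes Grk5 from 3.01% to 1.72% and Adrbk2 from 2.51% to 1.35%. Of 7 nicotinic assembly and modulator genes 6 fell, Lypd1 from 4.53% to 2.37% and Lypd6 from 4.02% to 2.27%. Of 5 dopamine signalling genes 4 fell, among them the striatal regulator Rgs9 from 3.24% to 1.69% and Ppp1r1b, which encodes DARPP-32, from 2.49% to 1.57%. Over the 59 genes the median share of WT mCA kept was 55.9%, beside 56.6% for the receptor genes, and 0 of the 59 passed the mCG test.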

How the data were processed

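Per the labels, DNA of 8 cortices was bisulfite converted and sequenced. The submitters' processing notes name BS-Seeker2, bedtools and the mm9 build. Tool versions, and which span was counted for a gene, are not given in the sources used here. For each gene and animal the authors deposited the fraction of cytosines called methylated, without counts, and it was multiplied by 100. Group means of the authors, in another 8 columns, were left out. Genotype was compared with limma 3.58.1 (R 4.3.3, eBayes with trend, no covariate, two-sided) over 21302 genes for mCA and 21060 for mCG, with Benjamini-Hochberg adjustment over all genes and a threshold of 0.05. Relative mCA used a pseudocount of 0.001. The fits were also run on simulated data with independent genes, few of them changed. That setting does not cover a shift shared by most genes, and its outcome is not given here. Tables and figures were made with Python 3.11.15, numpy 2.4.6, pandas 2.3.3 and matplotlib 3.10.9. The share kept is the ratio of group means with a first-order SE. P-values measure the spread between animals within a genotype, which are separate mice per the labels.

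Named genes per family were the highest and lowest WT mCA, up to 2 largest falls that passed, the largest mCG difference and each gene whose mCA did not pass; other named genes were chosen after their values were seen. The members and gene lists were chosen with earlier results of these data known. Alternatives were other scales, moderation, centring, sex, a replicate block, a filter on low values and animals left out. Sequences are from RefSeq (GRCm38.p6), which held a promoter entry for 32 of the 43 genes. No shallow library entered a test.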

Additional observations from a re-analysis of the deposited data

Results flagged for a closer look

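Dixon's criterion was applied to 104 groups of 4 animals: the medians of the families and of the whole set, and the receptor genes picked by the naming rule per family, in mCA and mCG. The remaining receptor genes were not examined, Htr1f among them, with 2.40% mCA in WT 651-3 and 1.81% to 1.85% in the other WT animals. Of the 104 groups, 7 had 1 animal standing apart from the other 3, where chance alone gives about 1 in 20. WT 651-3 was the high animal in 5 of them. Its mCA was 4.72% in Drd2, where the other WT animals held 3.76% to 3.91%. It was 1.61% in Chrm1, against 0.918% to 1.03%, and 3.47% in Chrm2, against 2.78% to 2.89%. Its mCG was 88.9% in Htr2b, against 84.3% to 84.9%, and its median mCG over the nicotinic genes was 80.5%, against 74.9% to 75.3%. hKO 651-2 held 1.68% mCA in Adrb3, where the other hKO animals held 0.714% to 0.875%. hKO 694 was low in mCG of Adra2b, at 77.2% against 80% to 80.3%.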

How the results depend on the processing

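The count of 37 receptor genes with lower mCA lay between 32 and 38 with 1 animal left out, without trend, on a logit scale, with sex as covariate or with the filter on low values; it was 30 in males and 24 in females, with fewer animals each. Subtracting each library's median, which asks for a fall beyond the median gene in points, left 17 lower and 4 higher. The 4 were Chrm1, Chrnb1, Chrnb2 and Htr2b (0.464, 0.366, 0.495 and 0.445 points), and their mCA fell in the main test. WT mCA and its difference in the main test had a Spearman rho of -0.92 over the 43 genes and -0.96 over all genes. The share of all genes called in this setting is not given here. Subtracting the medians turns the sign of any difference smaller than that of the library medians. It gave Adra2a 0.679, Chrna1 0.0196, Chrne 0.478, Chrng 0.548 and Drd4 0.515 points. Htr1f was at 0.0534, Htr2c at 0.290, Maoa at 0.283 and Maob at 0.0351 points. The mCA difference of Adra2a was 1.23 points in females, 0.0957 without both 651 animals, and from -1.01 to 0.416 with 1 animal left out; its relative mCA ran from -0.33 to 1.05 on the log2 scale. The mCG difference of Adra2c ran from -0.1804 to 28.9 points with 1 animal left out. The WT adrenergic median mCG was 66.1% with the median over WT animals, and 53.7% to 69.05% with 1 WT animal left out. Counts of 0 receptor genes in mCG and relative mCA held under each alternative run.

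A number in the animal names (046, 651 and 047) is shared by an hKO and a WT animal in 3 cases. Deviations of same-numbered animals correlated at 0.0369 to 0.114 in mCA and 0.0845 to 0.120 in mCG over genes. Not all lay above 0.1, and the main test left the animals unpaired. In mCG each of these 6 animals correlated best with its own number, and in mCA all but hKO 651-2 did. A correlation over genes leaves out a shift common to all genes, and both 651 animals stood high. Whether the numbers mark pairs was therefore not settled. The replicate block, a term for each number, gave 38 lower receptor genes in mCA and 0 in mCG. Animals 695 and 694 share their numbers with no other animal, so its genotype difference rests on the same-numbered animals alone. In mCA, Adra2b (-3.22 points, limma, adjusted p = 0.0105) and Adra2c (-4.92, 0.0269) passed and Chrm1 did not (0.0620). Adra2a mCA was at 0.346 points. What the block and the loss of 695 and 694 each contributed was not tested.

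No coverage per gene was given, so counting error in single genes and differences between animals cannot be told apart. In Adra2b, Adra2c and Drd4 several mCG values are simple fractions, which a few CG calls per animal would give. Adra2b, for example, is listed at 75% in WT 695 and at 80% in hKO 651-2 and 047-1. Single values of this kind also occur in other receptor genes, as in Drd1a (40% in hKO 047-1) and Adra2a (37.5% in WT 047-2). The levels and differences of such genes are the least certain. Unconverted cytosine adds to mCA: CC, a context with little methylation, was at 0.376% in WT and 0.272% in hKO (medians of shallow 8-week cortex libraries). With these subtracted, a step chosen after seeing the data, the median receptor gene kept 54.02% and the median gene 52.9%. The medians listed for lambda DNA in shallow 8-week cortex libraries were higher, 0.501% in WT and 0.437% in hKO, and were not subtracted. The hKO means of Chrnb2 (0.531%), Chrng (0.675%) and Chrm1 (0.680%) lie near these values, so the shares these genes kept are uncertain.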
